A study of Mus musculus with 25 samples.

Results

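This report describes the accessible chromatin around 55 mouse genes whose products write, erase or read DNA methylation and histone marks or move nucleosomes, in fetus- and graft-specific CD8+ T cells (TFGS). A region belonged to the set when the midpoint of its peak had one of the 55 genes as the nearest start of a protein-coding gene on GRCm39, so membership states proximity and does not show that a region acts on that gene. Of 13527 peaks in the count table, 84 met the rule, and they lay nearest to 45 of the 55 genes. The rule itself uses position alone, although the gene list was drawn up with earlier results of these data known.

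ATAC-seq, in which a transposase cuts and tags open DNA, was run on CD8+ T cells that bound the OVA:Kb tetramer and were sorted from the spleen and pooled lymph nodes of young adult female C57BL/6 mice. The foreign antigen came from the 2W-OVA.BALB/c strain, which carries the Act-2W-OVA transgene, either as donor of a skin graft or as father of the fetuses. Naive mice (n = 3) had received neither, and Sensitized mice (n = 4) had rejected such a skin graft. N+P mice went through the pregnancy without earlier sensitization, and their post-partum cells were sorted into PD1- cells (N+P C1, n = 3) and PD1+CD73+ cells (N+P C5, n = 3). S+P mice were sensitized by the graft before the same kind of pregnancy, and gave PD1- cells (S+P C4, n = 4), PD1+CD73+ cells (S+P C5, n = 4) and PD1+CD73- cells (S+P C7, n = 4). The tetramer reads 1 specificity, and the gates on PD1 and CD73 set which post-partum cells each group holds, while the labels name no such gate for Naive and Sensitized cells. A change from Naive or Sensitized to a sorted post-partum group therefore joins pregnancy with the gate, and these cannot be told apart. By the study's account, sensitized mice were mated weeks after the graft, and post-partum cells were taken within days of delivery. Time since the graft may thus differ between Sensitized and S+P cells, which cannot be told apart from pregnancy.

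DNA methyltransferases place methyl groups on cytosine and TET dioxygenases oxidize them. Polycomb repressive complex 2 (PRC2), with Ezh2 as its catalytic subunit and Eed and Suz12 as partners, writes the repressive mark H3K27me3, and other enzymes write or erase methylation on H3K4, H3K9 and H3K36 or acetyl groups on histone tails. In CD8+ T cells these enzymes are known for their part in effector differentiation, memory and exhaustion, with Dnmt3a, Tet2 and Ezh2 the most studied.

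Total counts in peaks ranged from 2430890 to 25419715 per library, so the shallower libraries measure weak peaks with less precision. The libraries of the Sensitized group did not behave alike at many of the regions below: at the Ezh2 intron peak replicates 1 and 2 had 419.9 and 352 normalized counts and replicates 3 and 4 had 118 and 134. Values without either pair of libraries are therefore given, beside the results or together near the end, for peaks whose results rest on this group. Naive replicate 3 also stood apart at some peaks, with 313 normalized counts at a Kdm2b peak against 479 and 481 in replicates 1 and 2. Normalized counts are counts divided by the size factor of each library, and they are compared between libraries at 1 peak, not between peaks. Peaks lay nearest to 9 of 10 CD8 T-cell marker genes, and to none of 6 B-cell and none of 6 myeloid marker genes (Cd8b1 was the CD8 T-cell marker without a peak), while 2 of 4 CD4 or regulatory T-cell markers and 1 of 2 NK-cell markers had peaks. In bulk libraries a lower count cannot tell fewer cells with an open region from less opening per cell.

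A peak was called when its adjusted p (DESeq2, Benjamini-Hochberg over all peaks tested) was under 0.1 and its absolute log2 fold change over 0.9. The sequences shown next are 200-base windows, on the plus strand of GRCm39, from 8 peaks that carry the main differences. Each window is the stretch of its peak with the most matches to 9 short motifs searched on both strands, or its centre where there is none, and capitals mark the matches. The first 4 windows come from peaks that opened after graft sensitization, at Ezh2 (chr6:47537938-47538137), Eed (chr7:89653342-89653541), Smarca4 (chr9:21521282-21521481) and Kdm7a (chr6:39260996-39261195). The next 3 come from peaks higher in S+P C5 than in Sensitized cells, at Tet2 (chr3:133269449-133269648), Hdac4 (chr1:92047063-92047262) and Kmt2a (chr9:44780084-44780283). The last comes from a Tet3 intron peak that closed in S+P C7 (chr6:83414368-83414567).
Ezh2 intron: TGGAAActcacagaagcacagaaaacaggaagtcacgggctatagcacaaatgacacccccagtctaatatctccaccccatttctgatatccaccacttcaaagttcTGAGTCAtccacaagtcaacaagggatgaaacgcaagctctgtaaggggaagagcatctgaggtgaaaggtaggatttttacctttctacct
Eed upstream: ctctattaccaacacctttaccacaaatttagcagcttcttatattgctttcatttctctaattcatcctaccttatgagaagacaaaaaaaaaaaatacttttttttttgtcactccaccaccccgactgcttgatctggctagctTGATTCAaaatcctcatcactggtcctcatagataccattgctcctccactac
Smarca4 upstream: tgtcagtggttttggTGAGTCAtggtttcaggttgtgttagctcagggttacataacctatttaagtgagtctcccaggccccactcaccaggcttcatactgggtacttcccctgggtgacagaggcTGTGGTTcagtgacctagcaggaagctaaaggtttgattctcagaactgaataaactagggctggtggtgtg
Kdm7a upstream: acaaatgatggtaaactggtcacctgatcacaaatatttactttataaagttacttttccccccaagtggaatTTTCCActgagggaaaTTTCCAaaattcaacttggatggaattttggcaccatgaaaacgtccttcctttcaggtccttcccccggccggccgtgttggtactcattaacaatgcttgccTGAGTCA
Tet2 upstream: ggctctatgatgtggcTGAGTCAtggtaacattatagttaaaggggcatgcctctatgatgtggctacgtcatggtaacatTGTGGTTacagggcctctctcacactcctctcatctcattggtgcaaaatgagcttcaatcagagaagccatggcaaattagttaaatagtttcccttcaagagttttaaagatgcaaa
Hdac4 intron: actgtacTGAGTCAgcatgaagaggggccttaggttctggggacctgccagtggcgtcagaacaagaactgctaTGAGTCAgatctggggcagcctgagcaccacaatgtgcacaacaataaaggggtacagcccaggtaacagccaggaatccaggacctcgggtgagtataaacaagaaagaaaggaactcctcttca
Kmt2a intron: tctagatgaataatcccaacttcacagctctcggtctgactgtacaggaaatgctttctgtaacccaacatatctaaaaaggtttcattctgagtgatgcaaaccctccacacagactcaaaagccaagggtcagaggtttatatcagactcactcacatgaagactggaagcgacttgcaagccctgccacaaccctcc
Tet3 intron: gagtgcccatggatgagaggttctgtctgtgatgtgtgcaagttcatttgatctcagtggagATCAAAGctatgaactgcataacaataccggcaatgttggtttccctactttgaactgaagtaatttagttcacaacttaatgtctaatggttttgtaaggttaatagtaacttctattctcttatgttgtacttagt

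The windows at Ezh2, Eed, Smarca4, Kdm7a, Tet2 and Hdac4 each held at least 1 match to the AP-1 motif TGANTCA, those at Ezh2 and Kdm7a also held the NFAT motif TGGAAA, those at Smarca4 and Tet2 the RUNX motif TGTGGTT, and the Tet3 window held the TCF/LEF motif CTTTGAT read on the minus strand. The Kmt2a window held none of the 9. Among the 43 member peaks outside promoters 18 (41.9%) held the AP-1 motif, against 34.6% of all 5857 such peaks. The NFAT motif was in 44.2% of them against 54.2%, the RUNX motif in 27.9% against 36.5%, the TCF/LEF motif in 18.6% against 17.4% and the T-box motif AGGTGTGA in 11.6% against 7.27%. At promoter peaks, those whose midpoint lay within 1000 bp of a protein-coding transcript start, 8 of 41 members held the YY1 motif AAGATGGCG (19.5% against 7.69% of all 7670 promoter peaks). The NRF1 motif TGCGCATGC was in 12.2% against 5.27%, the ETS motif CCGGAAGT in 4.88% against 14.7% and the CTCF motif AGGGGGC in 48.8% against 35.8%. Member promoter peaks had a median length of 1413 bp against 1118 bp, and the shares were not matched for length. They had a median GC content of 62.8% against 59.3%, and member peaks outside promoters 49.0% against 48.1%. Matches of different motifs may overlap, and a match is a description of the letters and not a bound site.

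Of the 84 peaks, 41 were promoter peaks (48.8%, against 56.7% of all peaks), 25 lay in introns, 17 were intergenic and 1 lay in a UTR. The 10 genes without a peak were Dnmt3b, Tet1, Ezh1, Setdb1, Ehmt2, Kdm1a, Hdac3, Hdac9, Ep300 and Kat2a. Nothing follows for these genes from the count table, because a peak near them can have another gene start closer to it. Hdac4 had 7 peaks, Arid1a 5, and Ezh2, Tet3 and Kmt2e 4 each, while 26 genes had 1. Among the 23 genes whose nearest promoter peak was sought within 1000 bp of the annotated gene start, Dnmt1, Dnmt3a, Tet3, Kmt2a, Kdm6b, Hdac7 and Chd4 had peaks only farther away. The most distant peak was in an Arid1b intron, 195634 bp downstream of the gene start, and the longest, at 4048 bp, covered the promoter of Kmt2e.

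In the study's 7 lists of reproducible peaks, 15 of 41 member promoter peaks overlapped all 7 lists (36.6%, against 34.9% of all promoter peaks) and 4 of 43 other member peaks did (9.30% against 9.68%). Lists differ in how many peaks they hold: that of S+P C5 covered 75 member peaks and that of S+P C4 only 21, with 82.9% and 27.0% of all peaks in them. Over the 11 comparisons 18 member peaks of 12 genes were called at least once (21.4% of members, against 22.0% of all peaks). Of these, 16 lay outside promoters and 2 were promoter peaks, while 44.3% of all other peaks and 4.95% of all promoter peaks were called at least once. Another 20 member peaks (23.8%, against 17.9% of all peaks) passed an adjusted p of 0.1 in none of the 11, among them 15 of the 41 promoter peaks (36.6%, against 22.9% of all promoter peaks). The difference from all peaks was not tested.

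The first comparison asked what rejection of a skin graft had changed. In Sensitized against Naive cells 6 of 84 member peaks were called, 5 opening and 1 closing (8.62% of all peaks were called). The 5 opened by log2 fold changes of 1.65 to 3.57 and lay at Ezh2, Eed (2 peaks), Smarca4 and Kdm7a, and the closing peak lay in Hdac4. At an adjusted p under 0.1 alone 13 passed (20.5% of all), 5 up and 8 down, and 8 to 19 when 1 library at a time was left out. The median log2 fold change was −0.08 over members and −0.01 over all peaks. Offsets fitted in each library to the dependence of its counts on peak level, called level-dependent offsets below, kept 5 opening calls and gave 4 closing ones, and a fit with the replicate number of N+P and S+P libraries as a block called 7 peaks.

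For pregnancy without earlier sensitization no member peak was called in the fit of all libraries with group as the only term, called the main fit below. In N+P C1 against Naive cells none of the 25 member peaks left by DESeq2's filter on low mean counts was called (0.0205% of all tested), and 4 passed the adjusted p alone, all upward (11.9% of all). In N+P C5 against Naive cells none of 21 was called (0.0262%), and 3 passed, all upward (7.87%). Members with an unadjusted p under 0.05 numbered 19 and 15 of 84, beside 2571 and 2361 of all 13527 peaks, and edgeR also called none in either comparison, with 16 and 14 at an unadjusted p under 0.05. These numbers rest on single libraries. In N+P C1 none passed the adjusted p without Naive replicate 1, Naive replicate 2 or N+P C1 replicate 2, 1 passed without N+P C1 replicate 1, and 22 passed, 8 up and 14 down, without Naive replicate 3. In N+P C5 none passed without any 1 of Naive replicates 1 and 2 or the 3 N+P C5 libraries, and 23 passed, 7 up and 16 down, without Naive replicate 3. Without that library 2 were called in N+P C1, both closing, and 3 in N+P C5, 1 opening and 2 closing. By edgeR none passed in either comparison, and with the compared groups only 15 passed in N+P C1, 11 of them down, and 13 in N+P C5, 9 of them down. The replicate block called 2 and none and raised those past the adjusted p to 11 and 6, while level-dependent offsets left 1 in each, downward. Without the filter 5 and 3 passed the adjusted p, and the Tet2 promoter in N+P C5 was the only one of these that rose. Of the 5 in N+P C1, 2 were then called, both closing, the Kdm2b intron peak (−1.28, adjusted p 0.0114) and the Kmt2a intron peak (−1.11, adjusted p 0.0872). Fits with total counts as size factors or with the compared groups only also called 2, both closing. The PD1+CD73+ and PD1- cells of N+P mice gave no member peak past either threshold, with none called (0% of all) and none past the adjusted p (0%), 1 at an unadjusted p under 0.05 (308 of all 13527 peaks) and none by edgeR.

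Pregnancy after sensitization was compared with sensitization alone. In S+P C4 against Sensitized cells no member peak was called (0.858% of all), by edgeR none either, and 2 passed the adjusted p, both lower (6.54% of all, 10 members and 2526 of all 13527 peaks at an unadjusted p under 0.05). Without Sensitized replicate 1 this became 22, 15 of them up and 7 down, without replicates 1 and 2 it became 29, 20 up and 9 down, and by edgeR none passed. In S+P C5 against Sensitized cells 6 were called, 5 opening and 1 closing (6.74%), and 23 passed the adjusted p (32.9%). Without Sensitized replicate 1 it was 41 that passed, without Sensitized replicate 3 only 10, without Sensitized replicate 4 or S+P C5 replicate 2 only 9, and without Sensitized replicates 3 and 4 also 9. In S+P C7 against Sensitized cells 6 were called, 2 opening and 4 closing (11.9%), and 36 passed, 15 up and 21 down (52.9%), or 27 to 48 when 1 library at a time was left out, and 17, 4 up and 13 down, without Sensitized replicates 3 and 4. Within S+P mice 5 peaks were called in C5 against C4, 4 of them opening (5.12%; 12 passed the adjusted p, 13.3% of all), and 3 in C7 against C5, all closing (2.38%; 7 passed, 8.93% of all). The 12 became 8 to 14 when 1 library at a time was left out, and the 7 became 3 when C7 lost its replicate 3 or its replicate 4, or C5 its replicate 1, and 4 when C7 lost its replicate 2. These comparisons share the Sensitized or S+P C5 libraries and are not independent. With level-dependent offsets the calls were 1 opening and 4 closing in S+P C5 and 0 opening and 5 closing in S+P C7 against Sensitized, and the replicate block gave 7 calls for S+P C7 against Sensitized, 4 for C7 against C5, and 5 peaks past the adjusted p for S+P C4 against Sensitized and 11 for C7 against C5.

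The comparison of PD1+CD73+ post-partum cells between sensitized and naive backgrounds, S+P C5 against N+P C5, gave 15 called member peaks, 11 opening and 4 closing (17.2% of all), and 59 past the adjusted p (63.8%), or 44 to 58 when 1 library at a time was left out. A test of the interaction asked whether the change from Sensitized to S+P C5 differed from the change from Naive to N+P C5. Both changes join pregnancy with the PD1+CD73+ gate, and these cannot be told apart. The test called 7 member peaks, all with a higher effect in sensitized mice (5.97% of all), and 22 passed the adjusted p (31.2%). That number fell to 11 without Naive replicate 1 or Naive replicate 2 and to 14 without N+P C5 replicate 3, and was 34 without Sensitized replicate 1, 43 without Sensitized replicates 1 and 2 and 7 without replicates 3 and 4. Apart from the interaction, where 2 promoter peaks were called, every call was outside promoters. The median log2 fold change in S+P C5 against N+P C5 was −0.02 at the 41 member promoter peaks and 0.19 at the 43 others, with ranges of −0.56 to 0.75 and −2.01 to 3.55. Of all promoter peaks 3.36% were called and of all others 35.4%, against none of 41 and 15 of 43 members. At an adjusted p under 0.1 alone 25 of 41 member promoter peaks passed (58.4% of all promoter peaks) and 34 of 43 others (70.7% of all others), and in the interaction 11 of 41 (34.8%) and 11 of 43 (26.6%). Level-dependent offsets gave 5 opening and 5 closing calls in S+P C5 against N+P C5, and 5 higher and 1 lower (Smarca4, −1.04) in the interaction. Offsets that depend on GC content gave 5 calls in the interaction, and both promoter calls, at Kdm2a (GC content 72.7%) and Arid1a (76.5%), were among those lost.

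**Figure D1:**
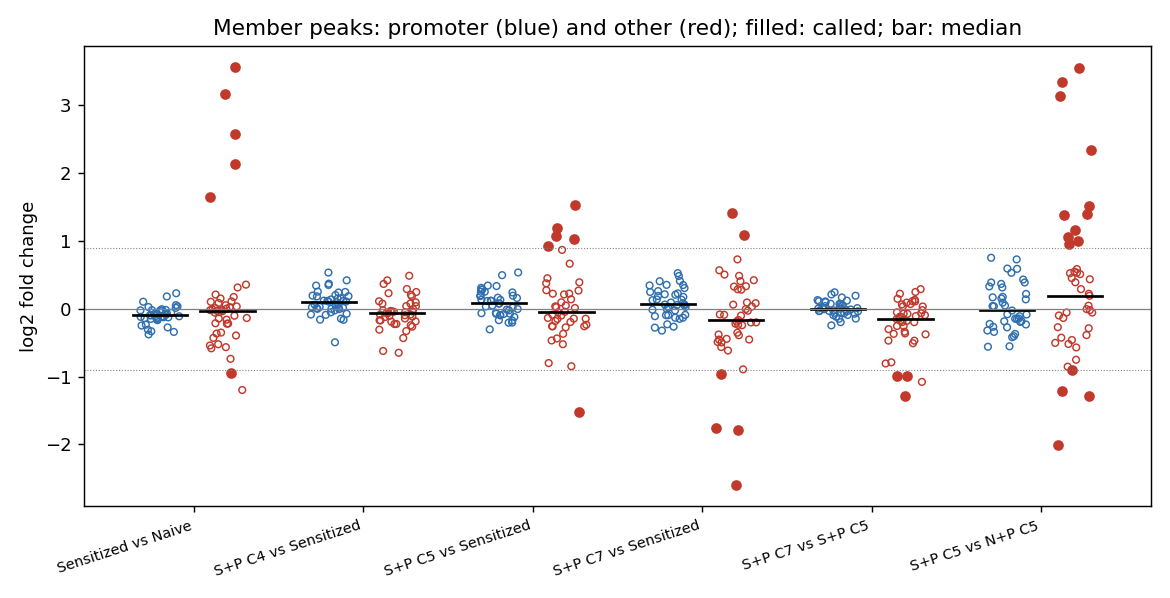
log2 fold changes of the 84 member peaks in 6 comparisons, with 41 promoter peaks in blue and 43 other peaks in red. Filled points were called and bars are medians, and every filled point is red, with the largest opening values at 3.57 in Sensitized against Naive.

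Among PRC2 genes, distal peaks at Ezh2 and Eed opened with sensitization while the promoters did not. An intron peak of Ezh2 (chr6:47537788-47538762, 34056 bp downstream of the gene start) had 52.3, 30.5 and 46.1 normalized counts in Naive libraries and 419.9, 352, 118 and 134 in Sensitized ones. Every Sensitized library was above every Naive library, with replicates 1 and 2 the highest (log2 fold change 2.58 ± 0.39, adjusted p 1.86e-09). After pregnancy the counts were 50.3, 69.9 and 46.9 in N+P C5 against 464, 565, 498 and 425 in S+P C5, without overlap (log2 fold change 3.13 ± 0.39, adjusted p 3.64e-14). Within S+P mice the peak was also higher in C5 than in C4, whose libraries had 88.5, 131, 273 and 165 (log2 fold change 1.55 ± 0.35, adjusted p 3.17e-04), and C7 had 407, 449, 361 and 301. It was also higher in S+P C5 than in Sensitized cells (log2 fold change 0.93 ± 0.34, adjusted p 0.0335), and became 0.34 without Sensitized replicates 3 and 4, which ends the call, and 1.96 without replicates 1 and 2. Level-dependent offsets (0.60) and leaving out Sensitized replicate 3, Sensitized replicate 4 or S+P C5 replicate 2 alone also ended it. The gain of Sensitized over Naive was still called without replicates 1 and 2 and without replicates 3 and 4, at 1.55 and 3.17 respectively.

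The promoter peak of Ezh2 (chr6:47570650-47572686) behaved otherwise. It had 1032 ± 16.6 normalized counts in Naive (SD, n = 3) and 929 ± 73.7 in Sensitized cells (n = 4), a log2 fold change of −0.15 (adjusted p 0.170), and was slightly lower in S+P C5 than in N+P C5 at −0.23 (adjusted p 0.00604). A peak 41294 bp upstream of the gene start rose by 0.39 (log2) in S+P C5 against N+P C5 (adjusted p 0.00579), and the remaining one, 55616 bp upstream of the gene start, passed in no comparison.

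Eed, which binds H3K27me3 and stimulates the complex, had a pair of upstream peaks that opened with sensitization. At chr7:89653178-89653705, 23225 bp upstream of the gene start, Naive libraries had 15.2, 22.6 and 21.5 normalized counts and Sensitized libraries 253, 298, 71.7 and 97.1 (log2 fold change 3.17 ± 0.47, adjusted p 1.19e-09). The N+P libraries had 16.6, 4.49 and 11.3 in C1 and 23.1, 16.4 and 30.1 in C5, while S+P C5 had 199, 262, 223 and 259.7 and S+P C7 191, 254, 250.2 and 324. At chr7:89656238-89657018, 26411 bp upstream of the gene start, the counts were 252, 273 and 339 in Naive and 1279, 1331, 472 and 549 in Sensitized libraries (log2 fold change 1.65 ± 0.35, adjusted p 4.53e-05), again without overlap. Without Sensitized replicates 1 and 2 the second peak fell under the threshold (0.82) while the first was still called (2.07), as it was with level-dependent offsets (1.48). Against N+P C5 the first peak was higher in S+P C5 by 3.34 (log2, adjusted p 5.74e-11), and by 0.82, no longer called, with level-dependent offsets.

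The Eed promoter (chr7:89628868-89631219) moved the other way: 1954 ± 61.9 in N+P C5 against 1462 ± 65.1 in S+P C5 (SD, n = 3 and 4), −0.42 (adjusted p 2.88e-06), and it was also lower than Sensitized in S+P C7, −0.32 (adjusted p 1.72e-04). The only Suz12 peak, at its promoter (chr11:79883668-79884318), rose from 302 ± 68.0 in Sensitized to 400.3 ± 59.0 in S+P C7 cells (0.41, adjusted p 0.0585), with overlapping groups.

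**Figure D2:**
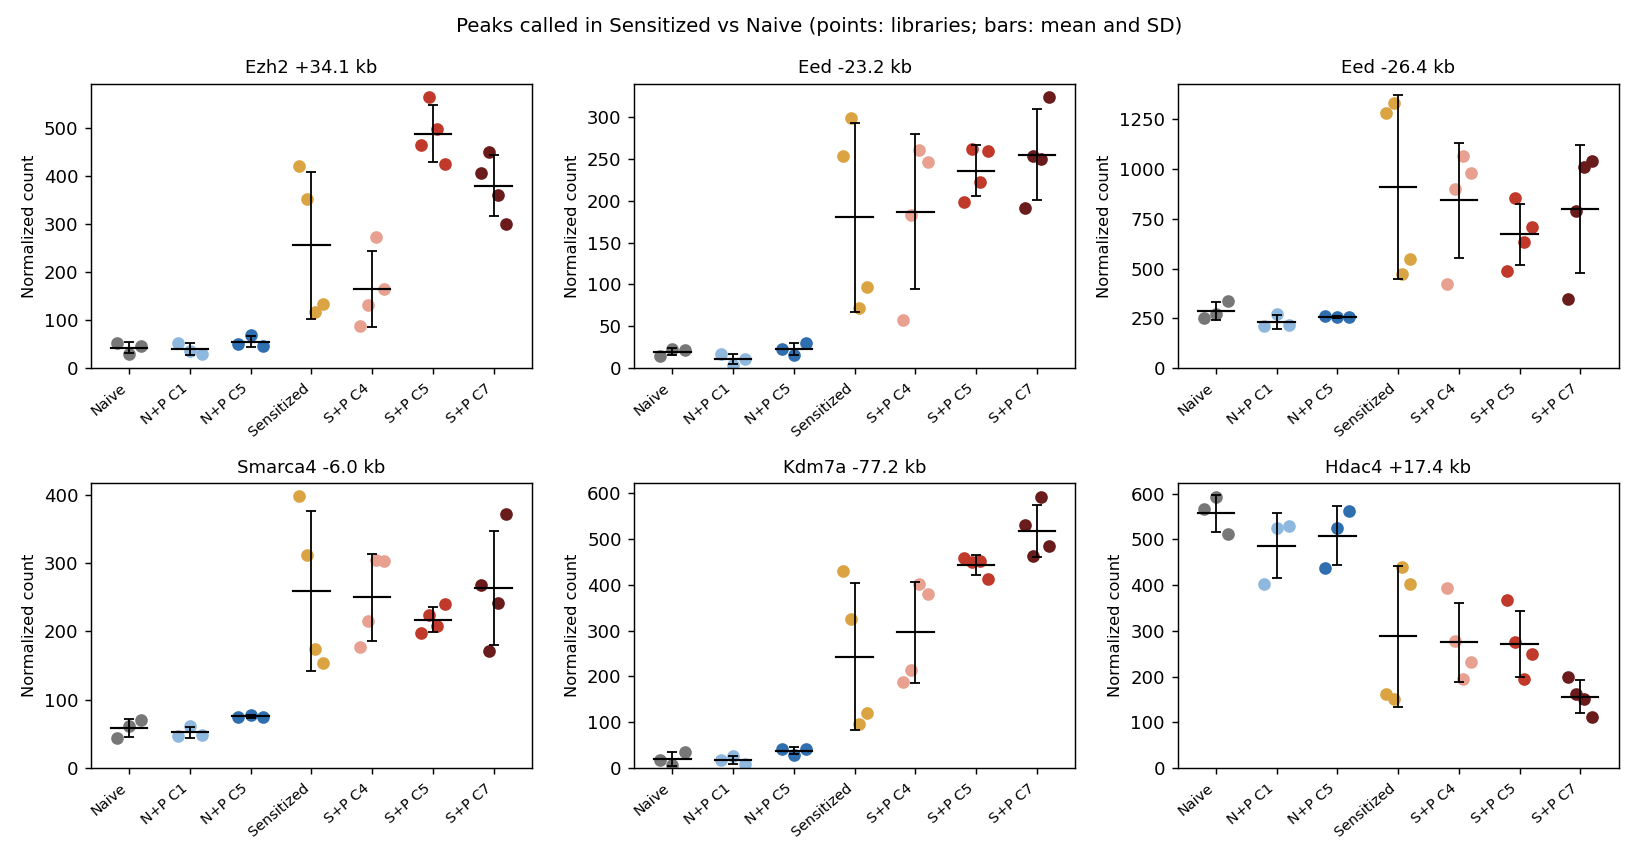
Normalized counts (y) by group (x) at the 6 member peaks called in Sensitized against Naive cells, 1 point per library with mean and SD. Sensitized replicates 1 and 2 are the first 2 points of their group and stand above replicates 3 and 4 at the 5 opening peaks, and below them at the Hdac4 peak.

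Among the nucleosome remodelers, Smarca4 encodes the ATPase of the BAF complex. A peak 6016 bp upstream of the gene start (chr9:21521163-21521601) had 44.1, 61.0 and 70.0 normalized counts in Naive and 399, 311, 174 and 153 in Sensitized libraries (log2 fold change 2.14 ± 0.31, adjusted p 3.48e-10), with every Sensitized library above every Naive one. In N+P C5 it had 74.5, 78.1 and 74.5 and in S+P C5 198, 223, 208 and 239.6 (log2 fold change 1.52 ± 0.31, adjusted p 7.36e-06), a difference of 0.56 and not called with level-dependent offsets. The Smarca4 promoter peak, with 285 ± 48.9 in Naive and 241 ± 62.3 in Sensitized cells, passed in no comparison.

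Arid1b, a BAF subunit, carried an intron peak that closed (chr17:5060005-5060646, 15719 bp downstream of the gene start). It had 288, 292 and 323 in Naive, 113, 124, 298 and 268 in Sensitized and 97.8, 42.6, 56.3 and 35.0 in S+P C7 libraries. All S+P C7 libraries were below all Sensitized ones (log2 fold change −1.79 ± 0.35, adjusted p 4.10e-06), and S+P C5, at 158, 81.1, 106 and 113, was below N+P C5, at 279, 291 and 272 (log2 fold change −1.28 ± 0.37, adjusted p 0.00164, and −2.02 with level-dependent offsets). The difference between C7 and C5 of S+P mice was called at −0.99 (adjusted p 0.0691) but not by edgeR, nor when single libraries were left out in 6 of 8 cases. A neighbouring intron peak 12913 bp downstream of the gene start also fell in S+P C7 against Sensitized cells, by 0.50 on the log2 scale (adjusted p 0.0202).

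Arid1a, the alternative large BAF subunit, had 5 peaks, which rose by log2 fold changes of 0.33 to 0.59 in S+P C5 against N+P C5, none of them called. At the peak by an internal transcript start (chr4:133481360-133481924) the interaction was 0.90 ± 0.30 (log2, adjusted p 0.0257). It lost the call when each of 8 libraries was left out in turn, and in separate fits with level-dependent offsets (0.79) or GC-dependent offsets (0.62). The counts were 357, 350.1 and 256 in Naive, 256, 219 and 150.3 in N+P C5, 382, 228, 210.4 and 213 in Sensitized and 304, 277, 337 and 339 in S+P C5 libraries. The peak 57166 bp upstream of the gene start rose in S+P C7 against Sensitized cells, 0.49 (adjusted p 0.0112), and the one at the gene start had 522 ± 65.8 in N+P C5 against 657 ± 21.1 in S+P C5, 0.33 (adjusted p 0.0353). Arid2 rose at its promoter in S+P C7 (0.41, adjusted p 0.0132), while the single peaks of Smarcb1 and Chd4 passed in no comparison. Over the 13 remodeler peaks, 7 rose and 1 fell at the adjusted p in S+P C5 against N+P C5, where 63.8% of all peaks passed.

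Of the DNA methyltransferases, Dnmt3a, which methylates unmodified DNA, had an intron peak that was lower in Sensitized and lower again in post-partum PD1+ cells of S+P mice (chr12:3920816-3921906, 65354 bp downstream of the gene start). It had 968, 962 and 950.1 in Naive, 626, 599, 738 and 675 in Sensitized, 509, 580.1, 456 and 508 in S+P C5 and 432, 531, 520.3 and 471 in libraries of S+P C7. The Sensitized libraries were all below the Naive ones (log2 fold change −0.54 ± 0.10, adjusted p 3.21e-06), and those of S+P C7 and S+P C5 all below the Sensitized ones, at −0.44 (adjusted p 5.82e-05) and −0.37 (adjusted p 0.00187). None of these differences reached the fold threshold. The other Dnmt3a peak, 14016 bp upstream of the gene start, and the Dnmt1 peak, 7152 bp downstream of the gene start at an internal transcript start, passed in no comparison. Uhrf1, which brings Dnmt1 to replicated DNA, had a promoter peak with 507 ± 28.6 in N+P C5 against 434 ± 36.7 in S+P C5 (−0.22, adjusted p 0.0541).

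Among TET genes, a peak upstream of Tet2 was highest in S+P C5 (chr3:133269218-133269880, 18649 bp upstream of the gene start). S+P C5 libraries had 328, 401, 323 and 254 normalized counts, against 121, 188, 154 and 155 in Sensitized, 136, 101, 96.2 and 74.8 in S+P C4 and 194, 186, 164 and 114 in S+P C7. The lowest S+P C5 library was above the highest of the other 21. The difference was called against Sensitized (log2 fold change 1.08 ± 0.21, adjusted p 9.22e-06), S+P C4 (log2 fold change 1.73 ± 0.22, adjusted p 3.62e-12), S+P C7 (−0.995, adjusted p 2.91e-04 for C7 minus C5) and N+P C5, at 117, 174 and 147 (log2 fold change 1.16 ± 0.23, adjusted p 3.65e-06). The change from Sensitized to S+P C5 exceeded the change from Naive to N+P C5 by 1.08 ± 0.33 (log2, adjusted p 0.0146). Level-dependent offsets gave 0.74 against Sensitized, 0.35 against N+P C5 and 0.63 for the interaction, none of them called, and the C7 against C5 call was lost without S+P C5 replicate 2 or S+P C7 replicate 4.

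The Tet2 promoter (chr3:133248781-133251512) had another pattern. It passed the adjusted p upward after pregnancy in naive mice, with 1137, 1172 and 1394 in Naive, 1536, 1573 and 1494 in N+P C1 and 1543, 1595 and 1614 in N+P C5 libraries, 0.31 (adjusted p 0.0656) and 0.36 (adjusted p 0.0488), both without overlap, and without the filter on low counts only the second passed. By edgeR, and in N+P C5 without any 1 of 5 of the 6 libraries, neither it nor any other member peak passed. Tet3 had a short intron peak (chr6:83414251-83414684, 21598 bp downstream of the gene start) that closed. It had 298, 227 and 246 in Naive, 213, 199 and 191 in N+P C5 and 106, 123, 200.1 and 186 in Sensitized libraries. S+P C5 had 137, 76.5, 144 and 83.6 and S+P C7 48.5, 54.5, 39.8 and 40.7 (log2 fold change −1.75 ± 0.29, adjusted p 5.05e-08 for C7 against Sensitized, −1.29 (adjusted p 9.64e-04) for C7 against C5). The differences of Sensitized from Naive (−0.74), S+P C5 from N+P C5 (−0.85) and S+P C5 from Sensitized (−0.47) were not called in the main fit. Level-dependent offsets called them, at −1.33, −2.07 and −1.03 respectively. All 4 S+P C7 libraries were below every other library. A second intron peak, 42657 bp downstream of the gene start, fell in S+P C7 by 0.56 on the log2 scale (adjusted p 0.00206), and both Tet3 promoter peaks passed in no comparison.

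**Figure D3:**
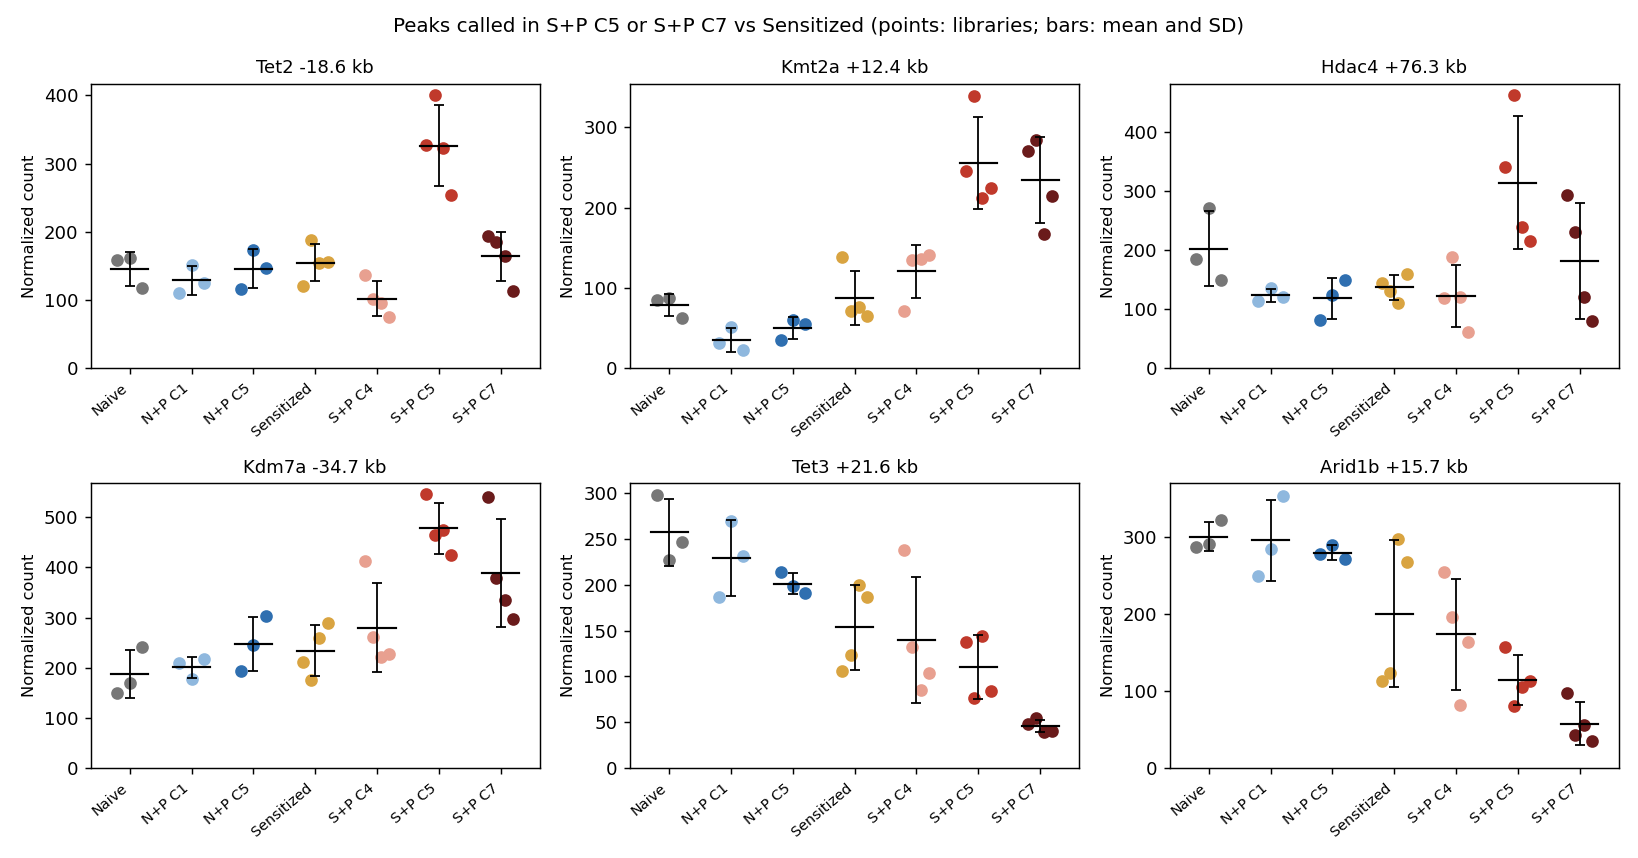
Normalized counts (y) by group (x) at 6 member peaks called in S+P C5 or S+P C7 against Sensitized cells, 1 point per library with mean and SD. The Tet2 peak is high in S+P C5 alone, the Kmt2a and Kdm7a peaks in both PD1+ groups of S+P mice, and the Tet3 and Arid1b peaks are lowest in S+P C7.

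Kmt2a, a methyltransferase for H3K4, had 1 peak, in an intron (chr9:44779973-44780394, 12437 bp downstream of the gene start). It had 85.4, 87.5 and 62.5 in Naive and 35.2, 60.3 and 55.3 in N+P C5 libraries, and 138, 71.4, 76.8 and 65.6 in Sensitized and 246, 338, 212 and 224 in S+P C5 libraries. All S+P C5 libraries exceeded all Sensitized ones (log2 fold change 1.53 ± 0.27, adjusted p 1.48e-06), as did those of S+P C7, at 270.5, 284, 167 and 215 (log2 fold change 1.41 ± 0.28, adjusted p 4.11e-06). The test of the interaction gave 2.17 ± 0.44 (log2, adjusted p 2.87e-04), and 1.37 with level-dependent offsets. It was also higher in S+P C5 than in S+P C4 (log2 fold change 1.04 ± 0.28, adjusted p 0.00404), a call lost without S+P C4 replicate 1 or S+P C5 replicate 2 and with level-dependent offsets (0.29). The S+P C5 against N+P C5 difference was 2.35 (adjusted p 3.74e-12), but 0.43 with level-dependent offsets, which also left 0.73 against Sensitized for S+P C5 and 0.57 for the C7 cells, none of them called. In Sensitized against Naive these offsets called the peak as closing (−0.95), while the main fit gave 0.17, not called. In N+P C1 the filter on low counts left the peak untested, and without that filter the log2 fold change against Naive was −1.11 (adjusted p 0.0872).

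Kmt2e, a relative of Kmt2a, had 4 peaks, none of them called. The one 15184 bp upstream of the gene start (chr5:23622539-23625929) had 1888 ± 108 in Naive, 1619 ± 25.7 in Sensitized and 1466 ± 80.5 in S+P C5 cells (SD, n = 3, 4 and 4), −0.22 (adjusted p 0.0108) and, for S+P C5 against N+P C5, −0.29 (adjusted p 1.68e-04). Its promoter peak fell from 3279 ± 116 in N+P C5 to 2593 ± 95.6 in S+P C5 (−0.34, adjusted p 1.40e-06). The Kmt2c promoter peak was likewise lower in S+P C5 than in N+P C5 (−0.37, adjusted p 0.00161), and the Kmt2b promoter peak passed in no comparison. The peak nearest to Kmt2d lies at the promoter of Rhebl1, and its interaction was 0.73 (adjusted p 0.00126). Setd2, the H3K36 methyltransferase, rose at a promoter peak in S+P C7 (462 ± 37.5 against 321 ± 60.4 in Sensitized, 0.53, adjusted p 0.00518) and in S+P C5 (0.54, adjusted p 0.00905).

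The H3K9 methyltransferases Suv39h1, Suv39h2 and Ehmt1 had 1 promoter peak each. Suv39h1 (chrX:7940707-7941236) had 447 ± 40.1 in Naive, 424 ± 19.1 in Sensitized and 403 ± 19.6 in S+P C5 cells and passed in no comparison, as did Ehmt1, with 401 ± 64.5, 317 ± 76.9 and 364 ± 13.6. Suv39h2 (chr2:3475401-3476990) was lower in S+P C5, at 850.2, 634, 687 and 901, than in N+P C5, at 1056, 976 and 1033, without overlap (log2 fold change −0.40 ± 0.11, adjusted p 9.76e-04).

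Among 11 histone demethylase genes with 18 peaks, Kdm7a, which removes H3K9 and H3K27 methyl groups, had the peak with the largest change. At chr6:39260611-39261341, 77248 bp upstream of the gene start, Naive libraries had 17.9, 5.90 and 35.96 normalized counts and Sensitized libraries 429, 325, 96.9 and 121 (log2 fold change 3.57 ± 0.46, adjusted p 1.58e-12). S+P C5 libraries had 459, 450.0, 452 and 412 and N+P C5 libraries 42.3, 28.8 and 42.1 (log2 fold change 3.55 ± 0.45, adjusted p 1.78e-13, and 2.15 with level-dependent offsets). Slc37a3 is the next gene start, 93700 bp away. S+P C7 libraries, at 529.9, 463, 592 and 484, were above all Sensitized ones (log2 fold change 1.09 ± 0.40, adjusted p 0.0172), but without Sensitized replicates 3 and 4 the value was 0.46 and not called (2.25 without replicates 1 and 2), nor was it with level-dependent offsets (0.59) or without Sensitized replicate 3 or 4 alone.

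A second Kdm7a peak, 34743 bp upstream of the gene start (chr6:39217883-39219058), was higher in S+P C5 than in Sensitized cells. It had 212, 176, 259 and 289 in Sensitized and 547, 465, 474 and 424 in S+P C5 libraries (log2 fold change 1.03 ± 0.22, adjusted p 8.31e-05), a difference of 0.81 and not called without Sensitized replicates 1 and 2. The peak had 194, 245 and 303 in N+P C5 (log2 fold change 0.95 ± 0.24, adjusted p 3.12e-04 for S+P C5 against N+P C5). In S+P C4 it had 412, 261, 221 and 227, which overlapped Sensitized. The Kdm7a promoter peak, with 1052 ± 70.3 in Sensitized against 1048 ± 104 in S+P C5, passed in no comparison.

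Peaks of Kdm2b and Kdm2a, enzymes that demethylate H3K36 and bind CpG islands, changed differently from Naive to N+P C5 than from Sensitized to S+P C5. The intergenic Kdm2b peak 4920 bp upstream of the gene start (chr5:123132225-123133386) went from 479, 481 and 313 in Naive to 255, 258 and 220.0 in N+P C5, and from 423, 309.9, 312 and 244 in Sensitized to 469, 681, 501 and 399 in S+P C5 libraries. The interaction was 1.46 ± 0.32 (log2, adjusted p 8.69e-04), and every S+P C5 library exceeded every N+P C5 library (log2 fold change 1.07 ± 0.23, adjusted p 1.97e-05). The Kdm2b intron peak 40528 bp downstream of the gene start (chr5:123087068-123087648) had an interaction of 1.02 (adjusted p 0.0363). It went from 420.2, 436 and 301 in Naive to 217, 263 and 204 in N+P C5, without overlap. From Sensitized to S+P C5 it went from 526, 439, 311 and 245 to 395, 612, 443 and 387, with overlap. This intron peak was also lower in N+P C1, at 165, 192 and 115, than in Naive cells, at 420.2, 436 and 301, where the filter on low counts left it untested (log2 fold change −1.28, adjusted p 0.0114 without the filter). The Kdm2a peak, at a transcript start 1035 bp downstream of the gene start (chr19:4446985-4447571), had an interaction of 1.13 (adjusted p 0.0183). It went from 281, 310 and 182 in Naive to 202, 143 and 150.3 in N+P C5, with overlap. From Sensitized to S+P C5 it went from 307, 151, 191 and 139 to 239, 318, 274 and 287, also with overlap. Without Sensitized replicates 3 and 4 the intron peak (0.68) and the Kdm2a peak (0.91) were not called. The Kdm2a peak was also not called with GC-dependent offsets (0.88), nor was the intron peak without Naive replicate 1, Naive replicate 2, Sensitized replicate 4 or S+P C5 replicate 2. The Kdm2b promoter peak had an interaction of 0.67 (adjusted p 0.0126).

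Other demethylases changed by under the fold threshold. The Kdm4c promoter, at an internal start, fell in S+P C5 against N+P C5 (1274 ± 91.5 against 1879 ± 60.1, −0.56, adjusted p 2.76e-05), and an intron peak of Kdm6b, an H3K27 demethylase, rose (1974 ± 318 against 1348 ± 149, 0.55, adjusted p 0.00345). In that comparison 9 of 18 demethylase peaks rose, 4 of them called, and 2 fell, where 63.8% of all peaks passed the adjusted p and 17.2% were called. The promoter peaks of Kdm3a and Kdm4a and the peak upstream of Kdm5b passed in no comparison.

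Hdac4, a class IIa deacetylase that shuttles between nucleus and cytoplasm, held 7 peaks, and they moved in opposite directions within 1 gene. The intron peak 17377 bp downstream of the gene start (chr1:92105605-92106482) had 566, 593 and 512 in Naive and 161, 151, 439.7 and 403 in Sensitized libraries, without overlap (log2 fold change −0.95 ± 0.31, adjusted p 0.0199). Without Sensitized replicates 1 and 2 the value was −0.41 and not called, and without replicates 3 and 4 it was −1.84. Leaving out Naive replicate 2, Sensitized replicate 1 or Sensitized replicate 2 alone also ended the call. In S+P C5 against N+P C5 the same peak was called with 367, 276, 195 and 249 against 437, 525 and 563 (log2 fold change −0.90 ± 0.31, adjusted p 0.0103), on the edge of the fold threshold. That call was lost in 8 of 16 alternatives, among them edgeR, the compared groups only and GC-dependent offsets (−0.78).

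The intron peak 65182 bp downstream of the gene start (chr1:92057774-92058703) had its highest group mean in Naive libraries, at 628, 744 and 531, and N+P C1 had 356, 410.5 and 595. It had 86.5, 156, 425 and 439 in Sensitized, 199.7, 56.6, 64.7 and 61.9 in S+P C5 and 95.3, 17.0, 34.8 and 33.7 in libraries of S+P C7. It was called in S+P C7 against Sensitized (log2 fold change −2.60 ± 0.56, adjusted p 3.12e-05) and in S+P C5 against N+P C5 (log2 fold change −2.01 ± 0.59, adjusted p 0.00222), and also in S+P C5 against Sensitized (−1.52, adjusted p 0.0303), where the value without Sensitized replicates 3 and 4 was −0.32 and not called, as without Sensitized replicate 3, Sensitized replicate 4 or S+P C5 replicate 2 alone. S+P C5 was also below S+P C4, at 514, 343, 163 and 183 (log2 fold change −1.63 ± 0.55, adjusted p 0.0340), a call lost when 5 of the 8 libraries were left out in turn. With the replicate block the peak was further called in S+P C7 against S+P C5 (−1.07) and in Sensitized against Naive (−1.196).

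The intron peak 76258 bp downstream of the gene start (chr1:92046801-92047524) rose instead. S+P C5 libraries had 341, 462, 239 and 216, all above those of Sensitized, at 145, 132, 111 and 160.0 (log2 fold change 1.196 ± 0.35, adjusted p 0.00718), S+P C4, at 119, 188, 122 and 60.8 (log2 fold change 1.36 ± 0.36, adjusted p 0.00339), and N+P C5, at 81.5, 125 and 150.3 (log2 fold change 1.40 ± 0.39, adjusted p 0.00106). S+P C7 overlapped both S+P C5 and Sensitized, with 294, 232, 121 and 80.7. Naive libraries had 186, 272 and 150.2, the second of them above a pair of S+P C5 libraries, so the interaction of 1.97 (adjusted p 0.00846) holds a lower level in N+P C5 than in Naive cells beside the higher one in S+P C5 than in Sensitized cells. With level-dependent offsets the difference from Sensitized was 0.86 and from N+P C5 0.57, neither of them called.

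A further intron peak, 126108 bp downstream of the gene start (chr1:91997000-91997626), had 189, 215, 309.6 and 246 in Sensitized and 197, 63.0, 89.5 and 136 in S+P C7 libraries (log2 fold change −0.95 ± 0.25, adjusted p 8.58e-04), and S+P C5, at 182, 115, 113 and 119, lay below N+P C5, at 278, 341 and 307 (log2 fold change −1.21 ± 0.27, adjusted p 4.57e-05). The call in S+P C7 was lost without Sensitized replicate 3 and without replicate 2 or replicate 3 of S+P C7, without Sensitized replicates 3 and 4 (−0.70) and with offsets that depend on GC content (−0.74). The remaining intron peaks, 131342 bp downstream of the gene start and 115502 bp downstream of the gene start, had log2 fold changes of −0.35 (adjusted p 0.0409) and −0.38 (adjusted p 0.0337) in S+P C7. The Hdac4 promoter peak rose in S+P C7, to 2183 ± 188 from 1859.9 ± 119 in Sensitized cells (0.23, adjusted p 0.00501).

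**Figure D4:**
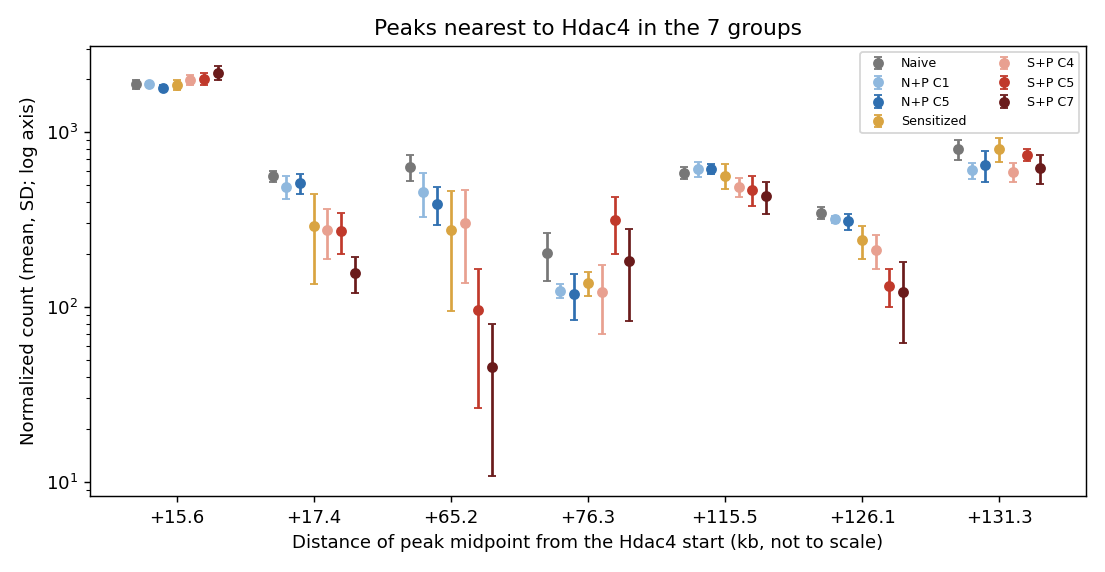
Mean normalized count and SD (y, log axis) at the 7 peaks nearest to Hdac4 in the 7 groups (colours), ordered by distance from the gene start. The promoter peak on the left varies least, 4 intron peaks are lowest in S+P C7, and the peak at 76258 bp is highest in S+P C5.

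Of the other deacetylases, the Hdac2 promoter (chr10:36849697-36851635) had a log2 fold change of 0.33 (adjusted p 0.0729) in N+P C5 against Naive cells, which did not pass by edgeR or in 5 of 6 fits without 1 library. It was lower in S+P C5, at 1039, 937, 1142 and 1216, than in N+P C5, at 1585, 1554 and 1636 (log2 fold change −0.55 ± 0.10, adjusted p 5.63e-07), with an interaction of −0.49 (adjusted p 0.0116). The Hdac1 promoter had 405 ± 80.1 in Sensitized and 517 ± 100.2 in S+P C7 cells, 0.34 (adjusted p 0.0633), with overlap. Hdac7, a class IIa enzyme expressed in T cells, rose at an intron peak in S+P C7 against Sensitized (0.42, adjusted p 0.00609), and its peak at chr15:97741116-97741491 had 186 ± 38.0 in S+P C5 against 109.9 ± 39.95 in S+P C4 (0.80, adjusted p 0.0340). The Hdac5 promoter rose in S+P C5 against N+P C5 (0.73, adjusted p 0.00273), and the Sirt1 peak fell (−0.32, adjusted p 0.00398). Of the 14 deacetylase peaks 7 rose and 6 fell in that comparison, where 63.8% of all peaks passed.

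Histone acetyltransferase genes had 7 peaks, none of them called. In S+P C7 against Sensitized cells 4 of 7 passed the adjusted p, all lower, where 52.9% of all peaks passed, and in S+P C5 against N+P C5 cells 5 passed, all lower, where 63.8% of all peaks passed. A Kat2b intron peak (chr17:53894126-53895160) had 641, 826, 746 and 826 in Sensitized and 469, 405, 529 and 571 in S+P C7 libraries, without overlap (log2 fold change −0.62 ± 0.11, adjusted p 1.23e-06), and was lower in C7 than in C5 of S+P mice (−0.47, adjusted p 0.00248). A peak 45154 bp upstream of the Kat6a start (chr8:23303932-23304849), inside an intron of Ap3m2, fell from 695, 839.5, 678 and 694 in Sensitized to 550.0, 442, 527 and 491 in S+P C5 (log2 fold change −0.52 ± 0.11, adjusted p 3.62e-05). The Kat6b promoter fell slightly in S+P C5 against N+P C5 (−0.18, adjusted p 0.0391), and the Crebbp promoter, with 426 ± 38.8 in Naive and 376 ± 27.3 in S+P C7, passed in no comparison. The Kat2b promoter had a log2 fold change of 0.31 (adjusted p 0.0811) in N+P C5 against Naive cells, which did not pass by edgeR or in 5 of 6 fits without 1 library.

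Ctcf, which shapes chromatin loops, had 2 peaks. The one 13272 bp upstream of the gene start (chr8:106349093-106350206) lies in UTRs of Agrp and Ripor1. It fell from 693, 709 and 767 in Naive to 525, 491, 648 and 583 in Sensitized libraries, without overlap (log2 fold change −0.36 ± 0.13, adjusted p 0.0289), and was lower in S+P C5 than in N+P C5 (−0.46, adjusted p 0.00126). The Ctcf promoter, with 902 ± 96.8 and 745 ± 127, passed in no comparison.

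Calls against the Sensitized group were repeated without either pair of its libraries. Without replicates 1 and 2 and without replicates 3 and 4, respectively, the opening of Sensitized over Naive was 1.46 and 2.58 at the Smarca4 peak and 2.37 and 4.17 at the distal Kdm7a peak. S+P C5 against Sensitized gave 1.84 and 1.27 at Kmt2a, 1.08 and 1.08 at the upstream Tet2 peak and 1.22 and 1.18 at the Hdac4 peak 76258 bp from the gene start. S+P C7 against Sensitized gave −2.08 and −1.32 at Tet3, −2.28 and −1.02 at Arid1b, −3.23 and −1.40 at the Hdac4 peak 65182 bp from the gene start and 1.72 and 1.16 at Kmt2a. All of these were still called. Over all member peaks past the adjusted p, 7 of 13 in Sensitized against Naive, 20 of 23 in S+P C5, 34 of 36 in S+P C7 and 21 of 22 in the interaction passed again in the same direction without replicates 1 and 2, and 11, 5, 15 and 5 of them without replicates 3 and 4.

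Among the smaller differences against Sensitized cells, several passed the adjusted p without 1 of the pairs and not without the other. Without replicates 3 and 4 the S+P C7 differences at Suz12 (0.24), the Arid1a peak 57166 bp upstream (0.25), Arid2 (0.34), the neighbouring Arid1b intron peak (−0.28), Hdac1 (0.18), the Hdac7 intron peak (0.27), the Hdac4 promoter (0.15) and the Hdac4 peak 115502 bp from the gene start (−0.16) no longer passed. Those of S+P C5 at Dnmt3a (−0.26) and Setd2 (0.46) did not pass either. Without replicates 1 and 2 the S+P C7 difference at the Hdac4 peak 131342 bp from the gene start (−0.17) and the Sensitized against Naive difference at Ctcf (−0.24) no longer passed. The Dnmt3a peak passed without either pair in Sensitized against Naive (−0.45 and −0.65) and in S+P C7 (−0.54 and −0.34). So did, in S+P C7, the Kat2b intron peak (−0.66 and −0.56), the Eed promoter (−0.42 and −0.21), the second Tet3 intron peak (−0.67 and −0.45) and Setd2 (0.60 and 0.45). The same held for Kat6a in S+P C5 (−0.43 and −0.60) and the Kmt2e peak 15184 bp upstream in Sensitized against Naive (−0.22 and −0.22). The interaction was called without either pair at Kmt2a (2.48 and 1.92), the Kdm2b peak 4920 bp upstream (1.68 and 1.27), the Hdac4 peak 76258 bp from the gene start (1.99 and 1.95) and the upstream Tet2 peak (1.08 and 1.08). At smaller interactions the Kdm2b promoter (0.51), the Hdac2 promoter (−0.39) and the Arid1a peak 2438 bp from the gene start (0.66) no longer passed without replicates 3 and 4, while the peak nearest to Kmt2d still passed (0.64).

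**Figure D5:**
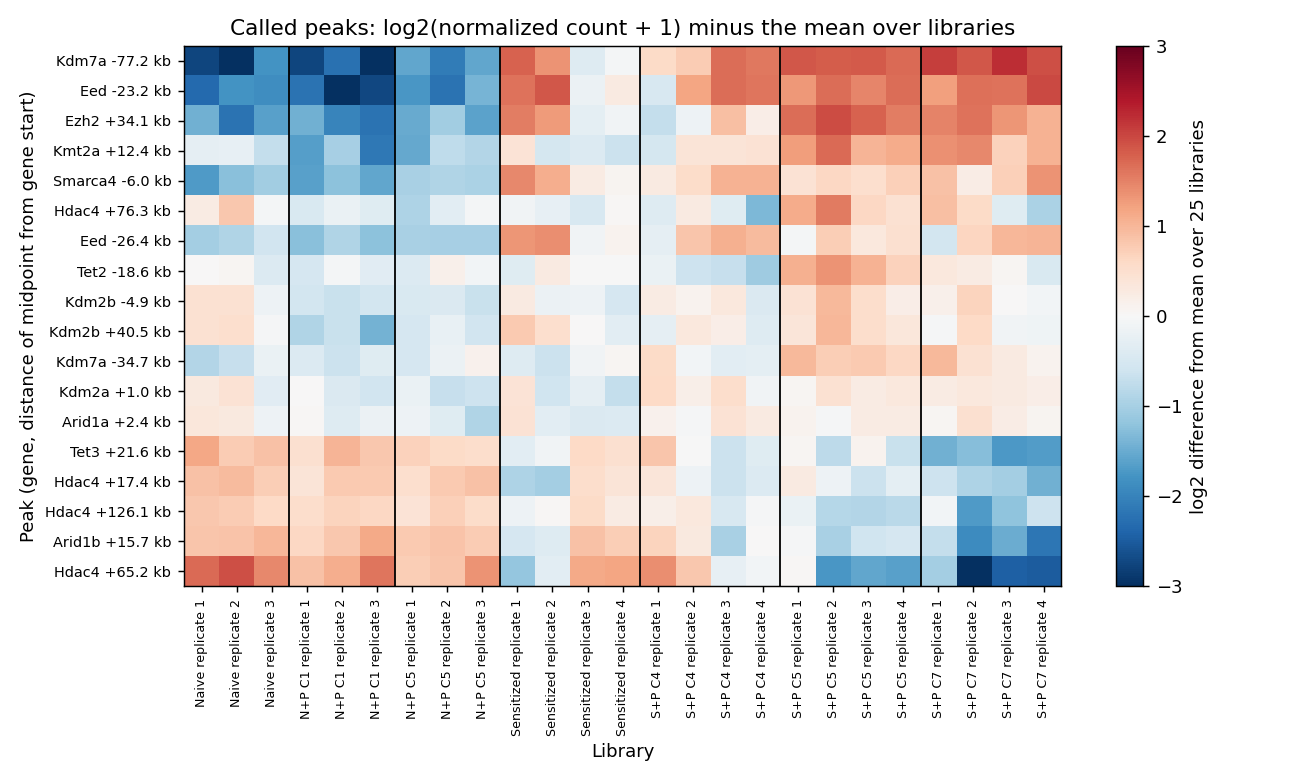
The 18 member peaks called in any of the 11 comparisons (rows) in the 25 libraries (columns), coloured by log2(normalized count + 1) minus the mean over libraries and ordered by the log2 fold change of S+P C5 over N+P C5. Sensitized replicates 3 and 4 are paler than replicates 1 and 2 at the upper rows, and the bottom rows are darkest blue in S+P C7.

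For comparison, 98 of 124 further chromatin modifier genes had 180 peaks. In Sensitized against Naive cells 12 of these opened and 3 closed past both thresholds (8.62% of all peaks were called), in S+P C5 against Sensitized 4 and 5 (6.74%) and in S+P C7 against Sensitized 3 and 14 (11.9%). In S+P C5 against N+P C5 the numbers were 16 and 16 (17.2%). In the interaction 4 had a higher and 4 a lower effect in sensitized mice (5.97%). The difference between these genes and the 55 was not tested.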

How the data were processed

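ATAC-seq was measured in 25 libraries of 7 groups, all from 1 sequencing run, with no batch in the labels. The study's figure legend states more than 1 independent experiment, and the labels do not assign libraries to them. The study also reports variability within its Sensitized ATAC-seq samples. The authors trimmed reads with Cutadapt 3.4, aligned them with Bowtie2 2.2.9 to GRCm39, removed reads with more than 1 location and duplicates (Bamtools, Picard 2.21.8), called peaks in each library with Genrich 0.6.1 in its ATAC mode, kept the peaks that recurred in a group with ChIP-R, merged the lists with Bedtools 2.27.1 and counted reads with deepTools (versions from the submitters' processing notes). They deposited raw counts for 13527 peaks. The deposited peak lists also hold, per the authors' ChIP-R output, a score, a signal score and p-values and q-values, pooled over the libraries of a group, and only the positions were used here.

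Each peak was assigned to the nearest start of a protein-coding gene (GENCODE vM39, GRCm39). Promoter means a midpoint within 1000 bp of a protein-coding transcript start. Counts of all peaks and libraries were fitted with DESeq2 1.42.0 in R 4.3.3, with group as the only term and Benjamini-Hochberg adjustment over all peaks tested, and the term called means an adjusted p under 0.1 together with an absolute log2 fold change over 0.9. Fold changes are unshrunken and errors are standard errors. edgeR 4.0.16 (quasi-likelihood), other normalizations, filters, left-out libraries and a replicate block served as alternatives. Further alternatives, GC-dependent offsets and leaving out pairs of Sensitized libraries, were chosen after seeing the data. The fitting was tested on simulated data.

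Libraries of C1 and C5 (N+P), and of C4, C5 and C7 (S+P), share replicate numbers. Deviations of equally numbered libraries from their group means correlated at 0.108 to 0.400 for C1 and C5, 0.103 to 0.572 for C4 and C5 and 0.522 to 0.771 for C5 and C7, the groups compared, so the numbers were treated as pairs in the replicate block, although the labels do not state it. For C4 and C7, which were not compared, the range was 0.0639 to 0.666, and differently numbered libraries of C4 and C5 reached 0.440. The study's methods describe cell suspensions made mouse by mouse, but the labels tie no library to a mouse, so p-values measure the spread between libraries, which may in part be technical. No pair of replicates agreed within sampling noise (lowest chi-square per degree of freedom 2.81).

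Peaks named in the text were the called members of each comparison (the 4 opening and 4 closing with the smallest adjusted p where more than 8 were called), promoters of 23 main genes, the member with the smallest adjusted p of each role in 4 comparisons, and extremes of length and distance. Other peaks named for completeness were added after their values were seen. Members and lists were chosen with earlier results of these data known. Total counts ranged from 2430890 to 25419715 per library. Promoter sequences from RefSeq were not used here because their table is on another build.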

Additional observations from a re-analysis of the deposited data

Results flagged for a closer look

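Single libraries stood apart from the other 3 of their group, by a gap large against the whole range of the group, in 6 of the 80 groups of 4 libraries examined, 72 at called peaks and 8 for counts summed over member promoter or other peaks, where chance flags about 1 in 20 groups. S+P C5 replicate 1 had 182 normalized counts at the Hdac4 peak 126108 bp from the gene start and 199.7 at the Hdac4 peak 65182 bp from it, in both cases the highest of its group. Sensitized replicate 1 was the highest of its group with 382 at the Arid1a peak 2438 bp from the gene start and 138 at the Kmt2a intron peak. S+P C4 replicate 1 was the lowest of its group with 71.5 at the Kmt2a peak, and S+P C7 replicate 2 the highest of its group with 463 at the Kdm2b intron peak.

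The change from Sensitized to S+P C5 differed from the change from Naive to N+P C5, by the interaction test with DESeq2, at 7 member peaks. The log2 differences, positive where the effect was higher in sensitized mice, were 2.17 at Kmt2a, 1.97 at the Hdac4 peak 76258 bp from the gene start, 1.46 at the Kdm2b peak 4920 bp upstream, 1.13 at Kdm2a, 1.08 at the upstream Tet2 peak, 1.02 at the Kdm2b intron peak and 0.90 at Arid1a.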

How the results depend on the processing

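No called member peak changed direction under any alternative run in the comparison that called it. The Kmt2a intron peak, at 0.17 and not called in Sensitized against Naive, was called closing there with level-dependent offsets (−0.95). The number of called member peaks moved by over 1.5 times in a few cases. In N+P C1 against Naive it was 2 with total counts as size factors, with DESeq2's filter off, with the compared groups only, with the replicate block and without Naive replicate 3, and 1 with GC-dependent offsets, against 0. In N+P C5 against Naive it was 3 without Naive replicate 3, against 0. In S+P C4 against Sensitized it was 2 without Sensitized replicates 1 and 2 and 1 without replicates 3 and 4, against 0, and in the interaction 14 without Sensitized replicates 1 and 2, against 7. The replicate block, which treats equally numbered libraries as a pair, called 7 in Sensitized against Naive, 7 in S+P C7 against Sensitized and 4 in C7 against C5, and changed no other count of calls beside N+P C1 against Naive.

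Leaving out 1 library at a time, the called members numbered 5 to 7 in Sensitized against Naive, 0 to 2 in N+P C1 and 0 to 3 in N+P C5 against Naive (both highest values without Naive replicate 3), 0 to 0 in N+P C5 against C1 and in S+P C4 against Sensitized, and 4 to 9 in S+P C5 and 4 to 8 in S+P C7 against Sensitized. They numbered 3 to 5 in S+P C5 against C4 (3 without S+P C5 replicate 2), 1 to 6 in C7 against C5 (6 without S+P C7 replicate 1, 1 without replicate 4), 14 to 16 in S+P C5 against N+P C5 and 5 to 9 in the interaction. Members past the adjusted p alone, leaving out 1 library at a time, numbered 8 to 19 in Sensitized against Naive (13 with all libraries, 8 without Naive replicate 1 or Sensitized replicate 2), 0 to 22 in N+P C1 and 0 to 23 in N+P C5 against Naive, 0 to 22 in S+P C4, 9 to 41 in S+P C5 and 27 to 48 in S+P C7 against Sensitized, 8 to 14 in S+P C5 against C4, 3 to 10 in C7 against C5, 44 to 58 in S+P C5 against N+P C5 and 11 to 34 in the interaction. The causes were not tested. The part of depth, which starts at 2430890 counts in the shallowest library, was not tested.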
